A study of Mus musculus with 6 samples.

Results

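The transcripts of normal mouse liver at birth were described from 3 wild-type arrays, each an Illumina expression BeadChip hybridised with liver RNA of newborn mice of a mixed 129 and C57Bl/6 background. Members were chosen by 2 conditions, namely 1 gene symbol in the platform annotation and a detection p under 0.05 on all 3 wild-type arrays, and were ranked by mean deposited signal. This gave 16861 of 34885 named probes (48.3%), out of 45281 probes on the array, and 10532 of 19057 named genes (55.3%). Each gene is given by its brightest member probe. The series also holds 3 arrays of Igf2 knockout livers, which were not used here. The labels name no treatment, and they do not say whether an array holds RNA of 1 pup, whether pups shared a litter, or how long after birth they were taken. The spread between arrays may therefore be in part technical.

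The liver of a newborn mouse has several roles. Its hepatocytes secrete most plasma proteins and, once the placental supply of glucose stops, take over gluconeogenesis, fatty acid oxidation and the disposal of ammonia. At the same time it is still a site of blood formation, in which erythroblasts, granulocyte precursors, megakaryocytes and B cell precursors mature between the hepatocyte cords. Fetal genes such as Afp, Igf2 and Dlk1 are known to be active in this tissue around birth and to be shut down in the following weeks.

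The probe signal is an intensity in arbitrary units on a linear scale, from which the authors had already subtracted a background. Of all signals, 25.04% to 25.11% were below 0, the brightest was 28405.4 on each array, and 46.3% to 48.5% of the probes had a detection p under 0.05. Sorted signals of any 2 arrays differed by at most 0.2, so the brightest probes could only exchange values between arrays. How far this narrowed their spread was not tested. Probes differ in how brightly they bind, so ranks describe probe brightness and no ratio between genes is given. Among 4244 genes with more than 1 member probe, the brightest probe had a median of 3.53 times the signal of the dimmest, and in 1002 of these genes the ratio was over 10. Alb, albumin, the main protein of plasma, has a single named probe, which had signals of 528, 444 and 450.1 on WT arrays 1, 2 and 3 and ranked 3944. In whole tissue, fewer cells of a type and less RNA per cell cannot be told apart.

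Marker genes of liver were detected on every array. All 6 hepatocyte markers (Alb, Apoa1, Ttr, Serpina1a, Hnf4a and Fgb) passed detection on the 3 arrays. Of 62 listed marker genes of lung, pancreas, gut, muscle, kidney, adrenal, skin and brain with a named probe, 13 passed and 47 were not detected on any array. Of all 19057 genes with a named probe, 10532 passed and 7285 were not detected on any array. Among defining markers, Sftpc and Sftpb of lung, Prss2, Cpa1 and Reg1 of pancreas, Acta1 and Ckm of muscle, and Umod, Nphs1, Star and Cyp11a1 of kidney and adrenal were not detected on any array. The muscle marker Mylpf was detected, with signals of 126.6, 126.8 and 126.9 on WT arrays 1, 2 and 3. So were Tnni2 (96.3, 63.2 and 80.1) and Myh8 (26.3, 19.6 and 28.8) of the muscle list. Sftpd, a lung surfactant protein, had signals of 174.5, 136 and 162. The brightest of the 13 was Amy2a5, a pancreatic amylase gene, at 9438.5, 10736 and 9831. The next brightest, Mttp, is a gut marker that liver also makes. Lgals4 of the gut list (935.5, 1115 and 1231) and Cela1 of the pancreas list (323, 240 and 257) were detected on all 3 arrays too. The remaining ones, with lower mean signals than Cela1, were Ager of lung, Slc12a1 of kidney and adrenal, and Krt10, Krt14 and Gfap of skin and brain. The probes of Amy2a5 may also bind the transcript of the salivary and liver amylase gene, a close paralog. WT array 1 stood apart in sex-linked transcripts. Xist, transcribed from the inactive X chromosome, had signals of 1046.5, -1.8 and 10.5 on its brightest probe, and all 4 Xist probes were detected on array 1 and none on arrays 2 and 3. The Y-linked genes were detected on every array by their brightest probes, Eif2s3y at 887, 925 and 1084.5, Kdm5d at 97.8, 129 and 123 and Uty at 56.5, 61.7 and 64.3. A further Eif2s3y probe had 20.5, 22.3 and 16.8, and the further named probes of Kdm5d and Uty were not detected on any array. Array 1 thus carried Xist together with Y-linked signal, while arrays 2 and 3 carried the latter alone. What the RNA of array 1 was made from was not tested.

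The top of the ranking was held by hemoglobin, plasma proteins and ribosomal proteins. Among the 40 brightest genes, 14 were in the lists of secreted plasma proteins, 8 had symbols of ribosomal proteins, 5 were H2ac histone genes and 3 were globins. Among the 100 brightest, the secreted lists held 25 genes and ribosomal proteins 26, with 13 genes of the metabolic lists and 5 that are encoded by the mitochondrial genome. The 3 brightest genes were globins, Hba-a1, alpha globin (27702, 28405 and 28405 on WT arrays 1, 2 and 3), Hbb-bs (28405, 27702 and 27702) and Hbb-bt (26263, 26263 and 26263), the adult beta globins. These values are the maximum and other top values of the common distribution, and Hbb-bt took the same value on every array. The iron carrier Trf, transferrin, came next with 25775, 26576 and 25243 in the same order, then Ahsg, fetuin A, a fetal plasma glycoprotein, with 25503, 25503 and 26576. Rplp1, a protein of the ribosomal stalk, had 23659.5, 24488 and 24488, and Mt1, a metallothionein that binds zinc and copper, 24236, 24236 and 23112.5. The arrays overlap among these neighbours: Trf ranked 4, 3 and 5 on the 3 arrays and Ahsg 5, 5 and 3. Summed over all member genes, the 10 brightest held 2.57% ± 0.00819 (SD, n = 3) of the signal, the 100 brightest 17.5% ± 0.0318 and the 500 brightest 44.004% ± 0.0351. These shares are of probe signal, not of RNA, and normalization between arrays holds them nearly equal.

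**Figure D1:**
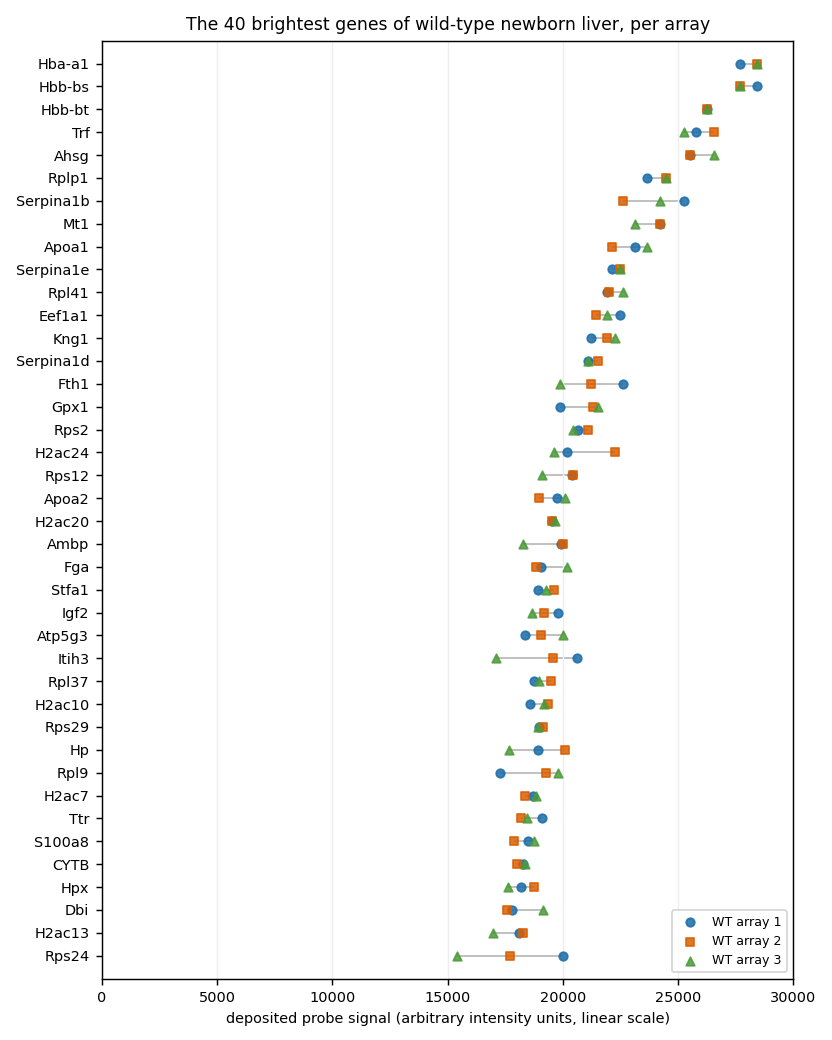
Deposited signal (linear axis) of the 40 brightest genes on each wild-type array; points are arrays and grey lines span the lowest to the highest. Hba-a1, Hbb-bs and Hbb-bt lead at 26263 to 28405.4, and Rps24 at the bottom spans 15426 to 20012.4.

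Carriers and transport proteins of plasma were among the brightest transcripts. Of 23 plasma carrier genes with a named probe, 22 were detected on all 3 arrays, against 55.3% of all genes, and 15 ranked within the top 500. Beyond Trf and Ahsg, Ambp, the precursor of alpha-1-microglobulin and bikunin, had signals of 19916, 20012 and 18252 on arrays 1, 2 and 3, and Ttr, transthyretin, which carries thyroxine and retinol-binding protein, 19093, 18202 and 18430.3. The scavengers of free hemoglobin and heme were as prominent, with Hp, haptoglobin, at 18938.5, 20093 and 17678 and Hpx, hemopexin, at 18202, 18765 and 17629.5. Afp, alpha-fetoprotein, the fetal counterpart of albumin, ranked 123 with 11413, 10532 and 9980. Array 1 was the highest for Afp and array 3 the lowest. At the dim end, Orm1, an acute phase glycoprotein, had 168, 131 and 51.9 and Serpina6, the corticosteroid carrier, 66.5, 67.4 and 160, which is a 3.24-fold and a 2.41-fold range over 3 arrays. Orm2 was not detected on any array. The median coefficient of variation of the list was 6.59%, against 10.1% over all member genes and 7.09% in the brightest 2107, among which its median signal of 9522 lies.

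All 16 apolipoprotein and lipoprotein genes with a named probe were detected on the 3 arrays, and 8 of them were among the 100 brightest genes. Apoa1, the main protein of high density lipoprotein, had 23112.5, 22129.8 and 23659.5, and its partner Apoa2 19739, 18978 and 20093. Apoc1 had 16649, 16971 and 15250.5, Apoe, the ligand for remnant uptake, 12581.5, 12918 and 11788, and Apob, the backbone of very low density lipoprotein, 12315, 12458 and 11899. Arrays differed by little in these genes, with coefficients of variation of 2.37% for Apob and 5.61% for Apoc1. Apoa4 (3335, 5336 and 5802) and Apoc3 (6496, 5180 and 4284.5) spread more and in opposite order, Apoa4 being lowest and Apoc3 highest on array 1. Mttp, which loads lipid onto apolipoprotein B, had 1461, 1665 and 1558, and Pltp, the phospholipid transfer protein, was the dimmest with 102, 77.7 and 67.8.

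Clotting factors and their regulators were detected throughout. All 19 coagulation genes with a named probe were detected on the 3 arrays. Kng1, kininogen, had 21233, 21899 and 22255.5, Fga, the fibrinogen alpha chain, 19034, 18822 and 20184, and Plg, plasminogen, 13446, 15538 and 14143. Array 3 was the highest for Kng1 and Fga, and array 2 for Plg. F2, prothrombin, had 7734, 7105.5 and 7097 and Serpinc1, antithrombin, 981, 1368 and 1158. The dimmest were F7 (608, 529 and 420.1) and Fgb, the fibrinogen beta chain (111, 129 and 111), whose partner chains Fga and Fgg (11314, 10447 and 9718) ranked 23 and 129. Of 19 complement genes, 18 were detected, with only 1 in the top 500. That gene was Cfi, complement factor I, with 8258, 8333 and 8750.4, and Cfb had 3517, 2909.7 and 3525. Components of the membrane attack complex ranged from C8b (2952, 2813 and 3128) to C9 (113, 143 and 99) and C6 (108, 78.4 and 74.6), and C1ra was not detected on any array. The complement list was highest on array 1 for 10 of 18 genes, where 27.3% of all member genes were.

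Protease inhibitors of the Serpina1 family, which encode alpha-1-antitrypsin, had 3 members in the top 40. Serpina1b had 25243, 22593.5 and 24236, Serpina1e 22129.8, 22469 and 22469 and Serpina1d 21078, 21515 and 21078. Because the Serpina1 genes are near-identical, their probes may bind each other's transcripts, and the values cannot be assigned to 1 gene. Among acute phase genes, Crp had 12509.9, 11766 and 12225 and Apcs, serum amyloid P, 9154, 8086 and 8996. Hamp, hepcidin, the hormone that limits iron export, had 2038, 4557 and 3133, lowest on array 1 and highest on array 2. By contrast Saa3 had 118, 105 and 140.1, Saa1 and Saa2 were detected on some arrays only, and Hamp2 on none. Over all 5 secreted lists, 90 of 95 genes with a named probe were detected and 50 of them ranked within the top 500.

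Promoter sequence was examined because the brightest secreted and globin genes are textbook cases of genes driven by a TATA box and by tissue-specific factors. Windows of 300 bases (250 before and 50 after the annotated start, from RefSeq on build GRCm38.p6) were searched on both strands for TATAAA, the TATA box core, for GTTAAT, part of the motif of the hepatocyte factor HNF1, and for AGATAA, a motif of the GATA factors. The words may overlap each other at their ends. TATAAA was present in 24.1% of 83 promoters of the detected secreted genes, in 10.7% of 28 ribosomal protein promoters, in 7.73% of 10930 promoters of all member genes and in 13.6% of all 32851 promoters of the table. GTTAAT was present in 26.5%, 7.14%, 4.74% and 7.10% of the same sets. Of 97 promoters of the detected blood lists, 17.5% held AGATAA, 11.3% held TATAAA and 0 held GTTAAT. The GATA word was also present in 15.7% of the secreted promoters, in 6.87% of those of all member genes and in 11.2% of all promoters. Of the secreted genes 73 of 90 had a promoter in the table. These are counts of letters, and no site or factor was measured. The 5 promoters shown are those of the neighbouring genes Afp and Alb, of a Serpina1 gene and of a beta globin as tissue-specific genes, and of Rpl41 as a bright ribosomal protein gene with none of the 3 words. Capitals mark each match.
Afp (chr5:90490464-90490763, plus strand): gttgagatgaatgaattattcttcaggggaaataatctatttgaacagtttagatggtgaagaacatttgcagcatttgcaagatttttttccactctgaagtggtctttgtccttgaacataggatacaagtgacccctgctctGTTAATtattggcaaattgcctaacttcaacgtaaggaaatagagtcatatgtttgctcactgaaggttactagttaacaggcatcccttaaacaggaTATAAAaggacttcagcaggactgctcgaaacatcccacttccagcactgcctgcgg
Alb (chr5:90460620-90460919, plus strand): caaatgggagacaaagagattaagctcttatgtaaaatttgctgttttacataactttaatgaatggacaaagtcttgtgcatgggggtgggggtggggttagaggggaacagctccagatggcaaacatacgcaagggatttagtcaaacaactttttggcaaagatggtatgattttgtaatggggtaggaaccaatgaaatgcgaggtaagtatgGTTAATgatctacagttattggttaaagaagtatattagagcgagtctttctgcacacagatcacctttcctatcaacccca
Serpina1b (chr12:103738140-103738439, minus strand): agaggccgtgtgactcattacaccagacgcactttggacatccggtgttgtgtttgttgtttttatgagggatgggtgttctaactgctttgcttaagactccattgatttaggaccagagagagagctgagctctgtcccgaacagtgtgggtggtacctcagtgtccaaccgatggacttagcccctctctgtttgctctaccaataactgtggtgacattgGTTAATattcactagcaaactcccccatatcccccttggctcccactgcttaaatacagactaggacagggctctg
Hbb-bt (chr7:103813874-103814173, minus strand): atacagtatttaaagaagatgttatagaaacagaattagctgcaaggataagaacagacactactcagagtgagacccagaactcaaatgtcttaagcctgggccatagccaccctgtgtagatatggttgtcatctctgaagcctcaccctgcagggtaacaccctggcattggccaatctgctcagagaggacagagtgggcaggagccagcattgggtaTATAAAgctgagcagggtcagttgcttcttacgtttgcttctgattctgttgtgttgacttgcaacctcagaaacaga
Rpl41 (chr10:128549119-128549418, minus strand): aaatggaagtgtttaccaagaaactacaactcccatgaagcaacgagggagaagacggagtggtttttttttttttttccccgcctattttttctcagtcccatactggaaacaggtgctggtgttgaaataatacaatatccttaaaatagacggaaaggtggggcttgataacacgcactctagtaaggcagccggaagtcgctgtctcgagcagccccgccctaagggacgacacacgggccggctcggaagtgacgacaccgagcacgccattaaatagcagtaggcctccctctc
Afp, Alb and Serpina1b each held GTTAAT, starting at positions -105, -32 and -26, where -1 is the base before the annotated start. TATAAA started at position -28 in Hbb-bt and at position -7 in Afp. All of these matches were on the strand of the gene.

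Enzymes of nitrogen disposal were detected with few exceptions. Of 35 enzymes that break down amino acids or form urea with a named probe, 33 were detected and 13 ranked within the top 500. Mat1a, which makes S-adenosylmethionine, ranked 41 with 18066, 17229.6 and 17229.6 on arrays 1, 2 and 3. Cps1, the entry enzyme of the urea cycle, had 11899, 15426 and 14101, Ass1 9583, 9476 and 7843 and Arg1, which releases urea, 7626, 9300.4 and 7734. Array 2 was the highest for Cps1 and Arg1, and array 1 for Ass1. Asl had 1001, 1182 and 853, and Otc, ornithine transcarbamylase, 162, 159.9 and 80.2, so that all 5 enzymes of the cycle were detected. Nags, which makes the activator of Cps1, was among the dimmest with 91.6, 117 and 65.4. The tyrosine and tryptophan enzymes Tat and Tdo2, known to appear in mouse liver around and after birth, were not detected on any array, although Fah (8632, 8899 and 9389.6) and Hgd (3253, 3307 and 2981.5), later steps of tyrosine breakdown, were. Array 2 was the highest for 17 of the 33 genes and array 3 the lowest for 18, where 32.1% of all member genes were highest on array 2 and 32.1% lowest on array 3.

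Nearly all genes of glucose supply were detected, and their spread between arrays differed from gene to gene. Of 17 genes of gluconeogenesis and glycogen, 16 were detected. Fbp1, fructose bisphosphatase, had 9364, 9413 and 9137 and Pygl, liver glycogen phosphorylase, 6295, 6179 and 6227.5, both nearly equal on the 3 arrays. G6pc, which releases free glucose, had 4049.8, 8258 and 5439, Pck1, phosphoenolpyruvate carboxykinase, 715, 1006 and 697, and their coactivator Ppargc1a 121, 275 and 82.7. For all 3 of these genes array 2 was the highest. Pck2 was not detected on any array. All 16 glycolysis genes with a named probe were detected. Ldha, lactate dehydrogenase, had 13249.9, 13329.6 and 14782, Slc2a2, the hepatocyte glucose transporter, 3429, 3814 and 3473, and Slc2a1, the transporter of red cells and their precursors, 1501, 1428 and 1656. Pklr, the pyruvate kinase of liver and red cells, had 416.5, 234 and 299.

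Genes of fatty acid oxidation had mostly high ranks with some low ones, and genes of fat and sterol synthesis ran from high ranks to the lowest. Of 25 genes for oxidising fatty acids or forming ketone bodies, 23 were detected, with a median rank of 343 and 14 in the top 500. Cyp4a14, an omega-hydroxylase under PPAR alpha, had 17445, 16557.5 and 16397, Etfa, which passes electrons from the dehydrogenases, 12918, 12474 and 12955, and Acadm, medium-chain acyl-CoA dehydrogenase, 11445, 12351 and 12581.5. Array 1 was the highest for Cyp4a14 and array 3 for Etfa and Acadm. Ehhadh, the peroxisomal bifunctional enzyme, had 6611, 7409 and 8139, Cpt2 6059, 5566 and 6867 and Bdh1, the last enzyme of ketone body synthesis, 3712, 3586 and 3660.5. Fgf21, a hormone of fasting, spread most in this list, with 782, 267 and 1887, lowest on array 2 and highest on array 3. Pdk4, a kinase induced in fasting, had 773, 869 and 1384 and was also highest on array 3. At the dim end of the oxidation list, Hadha had 438, 469 and 535 and Hadh 343, 313 and 271. Ppara had 237, 306 and 231, and Acat1, the dimmest, 179, 175 and 202 at rank 6385. The named probes of Cpt1a and of Fabp1, a protein known to be abundant in liver, were not detected on any array, and whether these probes bind the liver transcripts was not tested. Of 31 genes of fatty acid and cholesterol synthesis, 28 were detected, with a median rank of 4277. Fads1, a desaturase, had 8211, 7804.5 and 8452, and Dgat2, which completes triglyceride, 7105.5, 6774.5 and 7469.7. Acly had 2909.7, 2505 and 2786, Scd1 274, 193.5 and 228, the lipogenic factor Srebf1 82.6, 50.9 and 53.2 and Fasn, fatty acid synthase, 20.1, 29.5 and 34.6. Scd1, Srebf1 and Fasn thus had low signals on all 3 arrays. In the sterol branch Sqle, squalene epoxidase, had 2851, 2637 and 3471, Msmo1 2264, 2499 and 3093 and Fdps 2527, 2054 and 2893. Array 3 was the highest for all 3 of these sterol genes, and for 16 of the 28 genes of the list, where 40.2% of all member genes were highest on array 3.

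Bile acid and detoxification genes ranged over the whole scale. Of 18 bile acid genes, 16 were detected. Slco1b2, an uptake transporter of the sinusoidal side, had 14166, 16104 and 14895, Cyp8b1 5062, 5439 and 5724, Cyp7a1, the rate-limiting enzyme, 3418, 4489.9 and 2514 and the export pump Abcb11 2669.8, 3011 and 2851. Cyp7a1 was highest on array 2 and lowest on array 3. Slc10a1, the bile salt uptake carrier of mature hepatocytes, had 217.5, 206 and 203, Cyp7b1 40.7, 51.8 and 52.1 and Akr1d1 30.6, 32.8 and 26.5, close to the lowest member signals. Of 34 genes of drug metabolism, 28 were detected. Cyp2e1 had 14895, 15250.5 and 13225 and Gsta3, a glutathione transferase, 9781, 9064 and 7881. Cyp3a11 had 6980.3, 8605 and 5621, while Cyp1a2, known for its rise after birth, had 289.7, 246 and 419 and Cyp2c29 was not detected on any array. Array 3 was the lowest for 21 of the 28 genes and the highest for 1, with a list median of -0.17 on the log2 scale from the mean of the 3 arrays, against 0.11 on array 1. The same median over all member genes was 0.017 on array 3 and -0.0097 on array 1. Sult1a1 (6438, 6634 and 4616), Adh1 (5615, 5193.5 and 3861) and Cyp2f2 (1048, 1086 and 465) show it.

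Iron storage and redox genes were mostly bright. All 19 with a named probe were detected, with a median rank of 272 and 13 in the top 500. The dimmest were Txn1 (1064, 799 and 870), Slc11a2 (418, 410 and 410) and Heph (163, 172 and 128). Fth1, the ferritin heavy chain, had 22593.5, 21203 and 19861, Ftl1, the light chain, 10678, 9907 and 9476, and Slc40a1, ferroportin, the iron exporter, 9639.9, 9750.5 and 10736. Gpx1, glutathione peroxidase, had 19861, 21316 and 21515 and Selenop, the selenium carrier of plasma, 11257, 12021 and 11766. Cat, catalase, had 4266, 7450.3 and 6532, with array 1 below both others. Array 1 was the lowest for 6 of the 19 genes, where 31.6% of all member genes were.

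Genes of blood formation were detected in every lineage list, with the lowest share for T and NK cells (22.2%). The other blood lists had 75% to 100% of their genes detected, against 55.3% of all genes. All 9 globin genes with a named probe were detected. Below the 3 leading genes, Hbb-b2, an adult beta globin, had 6043, 5294 and 4448.5. The embryonic globins were near the lower end of the scale, Hbb-y with 76.9, 116 and 118, Hba-x, the zeta chain, with 44.2, 67.2 and 46.9 and Hbb-bh1 with 19.1, 25.8 and 25.6, and the theta globins Hbq1a and Hbq1b had 68, 57.7 and 77 and 27.3, 28.9 and 31.3. The embryonic globins Hbb-y and Hbb-bh1 were lowest on array 1. Globin probes of close sequence may bind each other's transcripts. Of 10 member probes named Hbb-bs or Hbb-bt, 9 had signals of 18656 or more on every array, and the other, of Hbb-bt, had 10565, 10051 and 8026. All 15 genes of heme synthesis and its transport with a named probe were detected. Alas2, the erythroid enzyme that starts heme synthesis, had 8914, 9099 and 7707, its housekeeping counterpart Alas1 3397, 3392 and 4536, Urod 8658, 8658 and 8856 and Alad 7944, 6512 and 6822. Array 3 was the highest for Alas1 and the lowest for Alas2. Fech, which inserts the iron, had 1149, 1160.4 and 1019, and Slc25a37, mitoferrin, 4657, 4938 and 5758.

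Of 25 erythroid genes with a named probe, 23 were detected. Slc4a1, the anion exchanger of the red cell membrane, ranked 77 with 14101, 13797 and 14655, and Prdx2, the main peroxiredoxin of red cells, 102 with 12351, 11544 and 12474. Sptb, beta spectrin, had 2808, 2728 and 2680.5, Ermap 2724, 2426 and 2816 and Rhag 1319, 1337 and 1189.8. The factors Klf1 (1863, 1696 and 1734), Tal1 (855, 892 and 865) and Gata1 (138, 98.1 and 134) and the erythropoietin receptor Epor (411, 471.5 and 452) were all detected on the 3 arrays. The list had a median coefficient of variation of 6.92%, where that of all member genes was 10.1%. Spread falls with signal, and member genes with mean signals of 426 to 1051 had a median of 8.26%. The list's median signal was 978. The widest was Bpgm, which makes the phosphoglycerate that lowers oxygen affinity in red cells, with 156, 239.9 and 78.2, highest on array 2 and lowest on array 3. Epb42 and Cd36 were not detected on any array.

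Granulocyte genes were the brightest of the white cell lists. Of 17 neutrophil genes, 16 were detected, with a median rank of 764.5. S100a8 and S100a9, the subunits of calprotectin, had 18508, 17867 and 18765 and 12611, 11742 and 10996. Mpo, myeloperoxidase of primary granules, had 7508, 6241 and 7545, and Camp and Ltf, of later granules, 6867, 6059 and 6396 and 5917, 5813.5 and 6716. Elane, neutrophil elastase, had 2844, 2356 and 2185.5. The median coefficient of variation of the list was 7.29%, against 7.09% in the brightest 2107 member genes, among which its median signal of 2742 lies. Array 2 was the lowest for 9 of the 16 genes and the highest for 1, where 35.9% and 32.1% of all member genes were. Mmp8 was not detected on any array. Stfa1, a stefin known from granulocytes of mice, was in the top 40 with 18903, 19599 and 19259.7, although it was in no list. Of 16 macrophage genes, 15 were detected, led after Slc40a1 by the lysozymes Lyz1 (10328, 8881 and 9734) and Lyz2 (4531, 3996 and 4023). The Kupffer cell markers Vsig4 (1518, 1561 and 983.5), Clec4f (840.3, 478 and 549) and Timd4 (266, 185 and 247) were detected, and Cd5l was not on any array. For 9 of the 15 macrophage genes array 1 was the highest, where 27.3% of all member genes were.

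All 11 megakaryocyte and platelet genes with a named probe were detected, and each of the 11 was highest on array 2, where 32.1% of all member genes were. Pf4, platelet factor 4, had 5456.5, 6822 and 5263, Ppbp, the precursor of platelet basic protein, 4219.7, 5005 and 3546, and Gp9, a subunit of the von Willebrand factor receptor, 502, 723 and 458. Itga2b, the integrin chain of the fibrinogen receptor, had 285, 396 and 288. The list median was 0.23 on the log2 scale from the mean of the 3 arrays on array 2, -0.13 on array 1 and -0.15 on array 3. Signal on the highest array was 1.19 times that on the lowest for Fli1, the narrowest of the 11, and 1.58 times for Gp9, the widest. Genes of B cell precursors had a median rank of 5259. Of 12 with a named probe, 9 were detected, Cd79b with 962, 975 and 801, Vpreb3 with 742, 702 and 544 and Igll1, a surrogate light chain component, with 568, 540 and 512. Pax5, Rag2 and Dntt were not detected on any array. Of 9 T and NK genes, 2 were detected, Nkg7 (82.9, 83.9 and 70.3) and Thy1 (61.3, 44.6 and 73.8), and Cd3e, Cd3d, Cd8a, Ncr1 and Gzmb were not detected on any array. Of 13 genes of stem and progenitor cells, 10 were detected, with a median rank of 8294, the brightest being the stem cell factor receptor Kit (979, 1231 and 1155). Kit and most others of that list are also known from cells other than stem cells.

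Growth genes of the fetus were led by Igf2, insulin-like growth factor 2, which ranked 25 with 19805, 19194.5 and 18656. Of 18 genes of the IGF system with a named probe, 15 were detected. Igf1, the growth factor that liver makes later under growth hormone, had 495, 296 and 199, a 2.49-fold range in which array 1 was the highest and array 3 the lowest. A further Igf1 probe had 490.4, 269.6 and 165.5, the same order. Of the binding proteins, Igfbp2 had 11694, 12835 and 10377.5, Igfbp4 8996, 8914 and 7195, Igfbp1 3520.1, 4895.5 and 4176 and Igfbp7 3029, 2805 and 2533. Igfbp2 and Igfbp1 were highest on array 2, and Igfbp4 and Igfbp7 on array 1. Igfbp5 had 634, 638.5 and 928.5 and Igfbp3, the main carrier in adult plasma, 325, 332 and 304. Array 3 was the highest for Igfbp5, while Igfbp3 was close to equal. Igfals, the acid-labile subunit that joins it there, had 1161, 1004 and 806.5. Among receptors, Insr, the insulin receptor, had 2118, 2642 and 2269, Ghr, the growth hormone receptor, 1587, 1521 and 1400.3, Igf2r, which clears IGF2, 877.5, 594 and 999.6 and Igf1r 277, 315 and 321. Array 2 was the highest for Insr and the lowest for Igf2r. The adaptors Grb10 and Irs2 had 9092, 10328 and 10051 and 595, 738 and 604. Igfbp6 and Irs1 were detected on some arrays only, and Ins2, an insulin gene, on none.

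Of 20 imprinted genes with a named probe, 15 were detected (75%, against 55.3% of all genes). Besides Igf2 and Grb10, Dlk1, a surface protein of hepatoblasts, had 8026, 7057 and 10467, Cdkn1c, an inhibitor of the cell cycle, 3089, 2593 and 3105, Peg3 2719, 3642 and 3836 and Mest 2045, 1913 and 1675. Plagl1, Zim1 and Sgce were not detected on any array. The list had a median coefficient of variation of 17.6%, and array 2 was the lowest for 9 of 15 genes, where 35.9% of all member genes were. Of 14 genes of fetal liver with a named probe, 12 were detected. Gpc3, a glypican of fetal liver and liver tumours, had 5323, 5384 and 5029, and Igf2bp3, an RNA-binding protein of fetal tissue, 1859, 1945 and 1856. The Lin28 genes, which hold back let-7 maturation, were at the lower end with 27.6, 24.1 and 51.7 for Lin28b and 36.8, 26.2 and 33.6 for Lin28a, and Hmga2 was not detected on any array. Of 26 genes of dividing cells, 24 were detected, none of them in the top 500. Mcm4, a subunit of the replicative helicase, had 3793, 3023 and 4214, Hmgb2 2824.5, 2421 and 2171, Top2a 1734, 1729 and 1567 and Cdk1 1671, 1698 and 1392. Array 2 was the lowest for 17 of the 24 and array 1 the highest for 14, where 35.9% of all member genes were lowest on array 2 and 27.3% highest on array 1.

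Transcription factors that define hepatocytes were all detected. All 20 liver transcription factors with a named probe were detected, with a median rank of 3631. Hnf4a had 2582, 3085 and 2801, Foxa3 2929, 2748 and 3004, Cebpb 2430.2, 2366 and 2862, Cebpa 678, 744 and 439 and the bile acid receptor Nr1h4 2475, 2684 and 2230. Array 2 was the highest for 12 of the 20 genes, Cebpa and Hnf4a among them, where 32.1% of all member genes were. Zhx2, a repressor of Afp in adult mice, was the dimmest with 46.8, 51.9 and 64.2. Of 23 genes known from adult hepatocytes, 15 were detected (65.2%, against 55.3% of all genes). A further 7 of the 23 were not detected on any array, as were 7285 of all 19057 genes. Apart from Tat, Tdo2 and Cyp2c29, those 7 were Mup3, Mup20, Elovl3 and Slco1a1. Glul, glutamine synthetase of the perivenous zone, had 149, 128 and 92.4, Hsd3b5, a male gene of adult liver, 38.5, 30.6 and 44, and Slc1a2 34.5, 20.9 and 26.8.

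Genes of other liver cells were detected too. Of 16 endothelial genes, 15 were detected, including Clec4g (2205, 2273 and 1899), Lyve1 (1377.5, 1398 and 1205) and Stab2 (752, 777 and 662) of the sinusoids, and array 3 was the lowest for 12 of the 15, where 32.1% of all member genes were. Of 18 genes of stellate and mesenchymal cells, 15 were detected. Dcn, decorin, had 7429, 7316 and 7652, Reln, made by stellate cells, 3370.5, 3275 and 4203, and Col1a1, fibrillar collagen, 499, 531 and 559. Array 3 was the highest for 11 of these 15 genes, where 40.2% of all member genes were. Bile duct genes were dim apart from the keratins Krt8 (3172.5, 2656 and 3589.6) and Krt18 (1884, 2167 and 2289), which hepatocytes also make. Sox9 had 395, 408.5 and 323, Krt7 23.7, 36.2 and 65.2, and Epcam and Cftr were not detected on any array.

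Of 57 member genes with symbols of ribosomal proteins, the median rank was 114 and the median coefficient of variation 4.85%, but mean signals ran from 24.6 to 24212. Rpl41 had 21899, 21991 and 22593.5, Rps2 20662, 21078 and 20456.5 and Rplp0 357, 375 and 429. Rps24 spread the most among the 40 brightest genes, with 20012, 17712 and 15426, while 2 other member probes of it had 187.4, 212.8 and 266.7, and 335.8, 351.3 and 371.5, which run the other way. Of 37 genes of oxidative phosphorylation, 35 were detected, 19 of them in the top 500, such as Atp5b (15338, 16649 and 16465) and Uqcrh (11017, 13097 and 12094). The mitochondrially encoded CYTB had 18252, 18021 and 18358. The 15 H2ac genes, which encode histone H2A and are near-identical, had mean signals from 23.97 to 20680, led by H2ac24 with 20184, 22255.5 and 19599.

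Replicate arrays were close over most genes. The median absolute log2 difference between 2 arrays was 0.15 for arrays 1 and 2, 0.17 for arrays 1 and 3 and 0.19 for arrays 2 and 3, or 1.11-fold, 1.12-fold and 1.14-fold. Across the 10532 genes, which are not independent replicates, log2 signals correlated at 0.990, 0.988 and 0.985 in the same order. The median coefficient of variation was 10.1%, and it grew from 7.09% in the brightest 2107 genes to 16.9% in the dimmest 2106. Signals on the highest array were over 2 times those on the lowest for 360 genes (3.42%), of which 77 lay in the 5266 brightest genes. Of those 77, array 2 was the highest and array 3 the lowest in 27, and the other 5 orders had 5 to 15 each. Where genes over 2-fold had further member probes, 84 of 96 such probes kept the order of the highest and lowest array. At the other end, Rpl32 (11936, 11851 and 11866), Scp2, a sterol carrier (14265, 14303 and 14166), Hsd17b4 of peroxisomal oxidation (5994, 5972 and 5932) and F10, clotting factor X (4536, 4479.6 and 4508), had coefficients of variation of 0.381% to 0.626%.

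**Figure D2:**
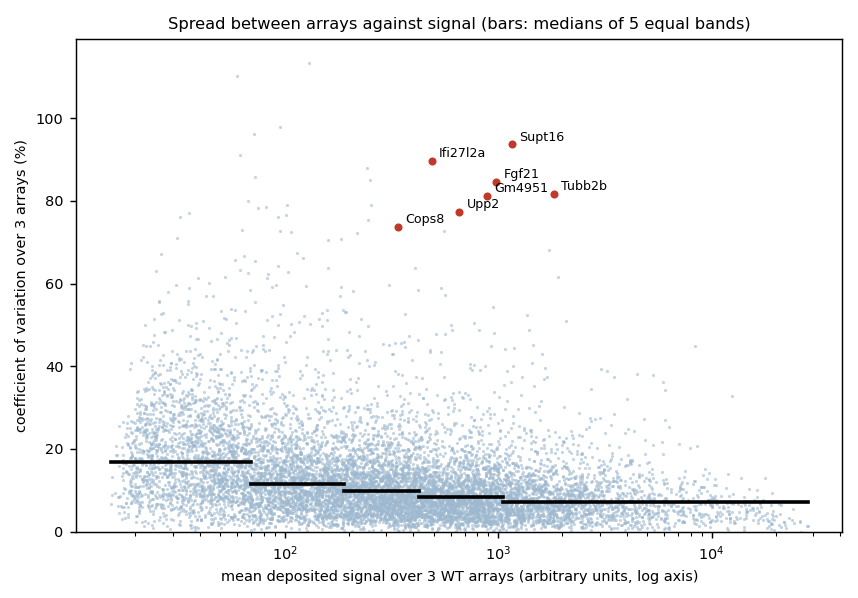
Coefficient of variation over 3 arrays against mean signal (log axis), each point a gene, with black bars at the median of 5 bands of equal gene number and red points for named wide genes. The medians go from 16.9% in the dimmest band to 7.09% in the brightest, and Supt16 reaches 93.7%.

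The number of arrays, 3, limits the precision of every spread given here. The 20 widest spreads among the 5266 brightest genes rested on 1 probe for most genes, and where there were others these did not always give the same order. Supt16, a histone chaperone of transcription, had 2265.5, 99.2 and 1106, a 22.8-fold range, while its other member probe had 163.4, 179.5 and 202.8. Cops8, a signalosome subunit (504, 469 and 51.2), and Psmb5, a proteasome subunit (879.9, 238 and 569), have no further named probe to compare. Gm4951, an interferon-inducible GTPase, had 1137, 1443 and 73.6 and a further probe 37.3, 40.8 and 7.3, in the same order but not detected on array 3. Of 4 other detected probes each, 2 for Tubb2b (1131.5, 807 and 3538) and 3 for Nab1 (828, 721 and 261) kept the direction. For Upp2, Ip6k2 and Klhl24 all other member probes had more signal on array 2 than on array 3, as the brightest probe did. Upp2, uridine phosphorylase of liver, had 559, 1209 and 205, and its 3 other member probes were all highest on array 2 and lowest on array 3. Ip6k2 (246, 513 and 162) and Klhl24 (972, 1414 and 493) were also highest on array 2 and lowest on array 3. Each had 2 further probes that were brighter on array 2 than on array 3. Abcg5, a transporter subunit that moves sterols into bile, had 476, 632 and 122 with no further named probe, and Abcg8, its partner, 112, 192.5 and 38.5, again highest on array 2 and lowest on array 3. Inhbe, a liver activin chain (1474, 1026 and 3258), had the order of Fgf21, with array 3 the highest and array 2 the lowest. Prg2, the major basic protein of eosinophils, was highest on array 2 with 304, 1022 and 341. Inhbe and Prg2 have no further named probe either.

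**Figure D3:**
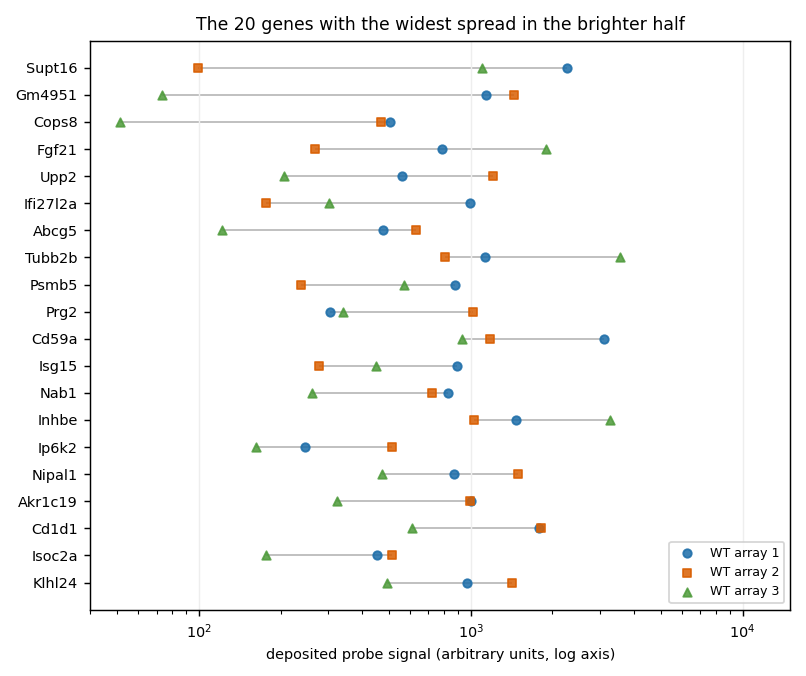
Signal on each wild-type array (log axis) of the 20 genes with the largest ratio of the highest to the lowest array among the 5266 brightest; grey lines span the arrays. Supt16, at the top, spans 99.2 to 2265.5, and Klhl24, at the bottom, spans 493.1 to 1414.3.

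Most of the listed interferon and antigen presentation genes were highest on array 1. Isg15, a ubiquitin-like protein, had 893.5, 276 and 449, and Ifi27l2a 994, 177 and 300.3. Of 15 detected genes of interferon response and antigen presentation, 13 were highest on array 1, where 27.3% of all member genes were, including Usp18 (1111, 628 and 823.5), Irf7 (147, 68.9 and 81.6) and the class I gene H2-D1 (3697.5, 2630.1 and 2199.8). The exceptions were Irgm1 (4333, 3673 and 4657), highest on array 3, and H2-Aa (128, 150.1 and 95), highest on array 2, as was Gm4951 outside the list. The list median was 0.23 on the log2 scale from the mean of the 3 arrays on array 1, -0.078 on array 2 and -0.10 on array 3. Array 1 is also the array with Xist signal, and whether these go together was not tested. Clock genes had the widest median spread of the lists with more than 10 detected genes, at 21.3%. Dbp (397, 583 and 389.5), Tef (318, 465 and 209) and Nr1d2 (315, 545 and 224) were highest on array 2, Per2 (659.6, 693 and 879) on array 3. ER chaperones were lowest on array 2 for 11 of 15 genes, where 35.9% of all member genes were, for example P4hb (9559, 8538 and 10409) and Hyou1 (90.3, 65.8 and 113). Immediate early genes were highest on array 3 for 8 of 13, with Egr1 at 1236.5, 1408 and 1803, and on array 1 for 0 of 13, where the shares of all member genes were 40.2% and 27.3%. With 3 arrays of 1 group, none of these orders can be given a test.

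At its edge, the rule on detection separates probes of nearly equal signal. The 340 named probes whose highest detection p lay between 0.04 and 0.05 had a median mean signal of 19.9, and the 289 just outside, between 0.05 and 0.06, a median of 18.5. Probes with no symbol were left out, and 34 of the 100 brightest probes on the array were of this kind or had several symbols.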

How the data were processed

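The labels' protocols state that liver RNA was purified on RNeasy columns and made into biotin-labelled cRNA for Illumina arrays. For each probe and array the authors deposited an intensity on a linear scale and a detection p-value. Although the title of this table calls it unnormalized, a background had been subtracted from its signals, and their sorted values were equal between arrays. Scanning software and dates were not analysed here. The values were used as deposited, with no further normalization.

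Rows of the detection table were named by matching their 6 intensity values to the other deposited table, whose probe IDs the platform annotation names. Of 9535 rows whose IDs differed between the tables, 8215 were named under both IDs, and 8073 of these gave the same gene. Symbols were updated through Entrez IDs for 34807 probes. There were 34885 probes with 1 symbol, 18 with several and 10378 with none, and only the first were used.

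A gene was represented by its brightest member probe. Coefficients of variation are SD over mean of the linear signal, and log2 values were taken of member signals, all above 0, with no pseudocount. With 1 group there was no test, and all results are descriptions. The rule for named genes took the 40 brightest, the 5 brightest and up to 3 dimmest detected genes of each of 46 lists, up to 4 undetected genes of a list, all globin, IGF and sex-linked genes, the 20 widest by ratio among the 5266 brightest genes and the 10 narrowest among the 500 brightest. Further list genes were named for their known role after their values were seen. Members and lists were chosen with earlier results of these data known. Alternatives were another detection threshold, detection on at least 2 arrays, identical IDs in both tables, the median of arrays, the mean of a gene's probes, the neqc method of limma 3.58.1 (R 4.3.3) and leaving out each array. Other steps used Python 3.11.15, pandas 2.3.3 and numpy 2.4.6, and the functions were tested on simulated data. Promoter sequences are those of RefSeq on GRCm38.p6.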

Additional observations from a re-analysis of the deposited data

How the results depend on the processing

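The counts of members held under every alternative that was run to within 1.5 times. Member probes numbered 16861, against 15270 at a detection p under 0.01, 17969 with detection on at least 2 of 3 arrays, 12152 with the same ID in both tables and 17092 to 17431 with 1 array left out. Member genes numbered 10532, against 9769 to 11050 under the same alternatives, and listed genes 642, against 627 to 655. Of the 100 brightest genes, 98 were shared with those by the median of arrays, 81 with those by the mean of a gene's probes, 100 with those after neqc and 96 to 99 with 1 array left out. Their share of signal was 17.5%, and moved by more than 1 SD to 19.4% with the mean of a gene's probes and to 17.6% at a detection p under 0.01. With 1 array left out it was 17.5206% to 17.5647%, the latter, without WT array 3, being past 1 SD. The median absolute log2 difference between 2 arrays was 0.17, against 0.13 in the 5266 brightest genes, 0.15 after neqc and 0.15 to 0.19 with 1 array left out. Of 354 named ranks, 238 moved with the mean of a gene's probes, against 0 after neqc and 12 to 13 with 1 array left out. Sorted deposited signals already differed by at most 0.2 between arrays. The neqc method could therefore hardly move ranks or the 100 brightest genes, and is no independent check of them. Ratios of the highest to the lowest array of the 20 widest genes moved by less than 1 SD of their pairwise ratios under neqc, while 5, 11 and 14 of them moved by more without WT array 1, 2 and 3. No paired analysis was possible because only 1 group was used.

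The main limit is signal over background. Detection at p under 0.05 with 3 arrays says that a probe was brighter than most negative controls, and a probe that was not detected leaves the level of its transcript unknown. The lowest member signals of the 3 arrays were 13.7 to 16.3. Of 5 bands of equal gene number, the dimmest, with mean signals of 15.4 to 69.6, had the largest median coefficient of variation, 16.9%. Common quantiles between arrays hide differences in total signal, and probe binding sets ranks, so the order of genes is not an order of transcript numbers.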

Other observations

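Some bright transcripts fell outside the lists. Fgl1, a hepatokine of the fibrinogen family, had signals of 15151.5, 7765 and 14514.5 on WT arrays 1, 2 and 3, lowest on array 2. A further probe of it had 9137, 6227.5 and 7765, in the same order. Another, far dimmer probe had 59.5, 8.4 and 63.3. It was also lowest on array 2, where it was not detected, but highest on array 3. Fgl1 was chosen after its values were seen. Dbi, the acyl-CoA binding protein, had 17782, 17582 and 19125, and Eef1a1, an elongation factor of translation, 22469, 21461 and 21899, both in the 40 brightest genes. Cd59a, an inhibitor of the complement attack complex, had 3093, 1183 and 932, and Cd1d1, which presents lipids, 1788, 1808 and 611, with array 3 the lowest for both. Akr1c19, an aldo-keto reductase, had 1004, 998 and 324, again with array 3 alone at the low end.

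Genes known to respond to glucocorticoid, a hormone that rises around birth, had a median coefficient of variation of 17.4% over 15 detected of 17 genes with a named probe. Errfi1, a feedback inhibitor of the EGF receptor, had 4553, 4494 and 5952, and Zbtb16, a transcription factor, 21.3, 44.1 and 30.4. Array 2 was the highest for 7 of the 15 genes, where 32.1% of all member genes were. Of 6 mesothelial genes, 4 were detected, and array 3 was the highest for all 4, where 40.2% of all member genes were. Upk3b, which marks the liver surface, had 265.5, 292 and 332.5 and Upk1b 80.7, 103 and 139. These are values of 3 arrays with no test.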
